A study of Rattus norvegicus with 32 samples.

Results

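Potassium channel genes of the rat left ventricle were examined after sepsis and after sepsis treated with landiolol. The group holds every gene on the array whose name in the scanner files begins with Kcn and a further lower-case letter, which covers the pore-forming subunits of potassium channels and the auxiliary subunits named after them. There were 94 such genes among 27963 named genes, with 153 probes. A single probe stood for 47 genes and several probes, 4 at most, for the other 47. Each gene is given here by its brightest probe on average, and its other probes are given where their call differed.

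The samples were left ventricles of Wistar rats, male and female, taken 20 h after sham surgery or after cecal ligation and puncture (CLP), a surgical model of abdominal sepsis. The other group, CLP plus landiolol, had the same CLP and an infusion of landiolol, which blocks β1-adrenergic receptors and is cleared quickly. Each sex had 5 sham, 5 CLP and 6 CLP plus landiolol rats, and each rat had its own array. The hearts had been perfused outside the body for functional measurements before they were frozen, in all groups alike.

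Potassium channels carry the outward current that repolarises the cardiomyocyte and the inward-rectifier current that holds its resting potential. In the rodent ventricle, repolarisation leans on the transient outward current of Kv4 pores with the KChIP2 subunit and on delayed rectifiers, whereas inward rectifiers, ATP-sensitive channels and background (K2P) channels set the resting and stress-related conductances. Other cells of the heart, such as smooth muscle cells, nerve fibres and leukocytes, have potassium channels of their own.

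A level is given as log2 of the processed intensity after quantile normalisation within a sex, and a difference as a difference of these log2 values, so that 1 unit is a factor of 2. Levels of different probes cannot be set against each other. A gene was taken as changed when its adjusted p, from limma over all probes tested, was below an FDR of 1% in comparisons with sham and of 5% in CLP plus landiolol against CLP. On the arrays, 34920 to 43155 spots were well above background and no spot was saturated, and the number of arrays limits the precision. The arrays of a sex lay on 2 slides of their own, so that a difference in level between the sexes and one between slides cannot be told apart. The first female slide was extracted with protocol GE1_107_Sep09. The second female slide and both male slides had GE1_105_Dec08, so slide and protocol go together in females. In the female arrays the sham group lay in the first row of the slides and the CLP plus landiolol group in the second row.

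The reported probe was well above background often enough to be tested for 52 genes in males and 48 in females, 47 of them in both sexes. For 41 of the 94 genes it was not in either sex. Among these were the pores Kcnq3 and Kcnq5 of the neuronal M current, Kcnj6 and Kcnj9 of the G protein-gated family, and all 5 members of the group of Kcnj1, Kcnj10, Kcnj13, Kcnj15 and Kcnj16. For Kcnk7 another probe was kept in males, but not the reported one. Kcnk1 and Kcnt1 could be tested in both sexes only through groups with CLP, since their probes were too often dim in sham, so a difference between CLP and sham was built into their selection. The same held in the other direction for Kcnn2, Kcna6 and Kcnt2 in males, kept through sham alone.

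The tissue label was checked on marker genes. All 9 markers of ventricular cardiomyocytes (among them Myl2, Myl3, Tnni3 and the factor Irx4) were well above background in every group, and 0 of 9 passed the FDR in any comparison. Their summed linear level was 2400000 to 2670000 in male sham, 2250000 to 2520000 in male CLP and 2250000 to 2630000 in male CLP plus landiolol, and 2560000 to 2840000, 2520000 to 2710000 and 2390000 to 2850000 in the 3 female groups. The other lists are given beside channel genes, and whether they moved together was not tested. In whole tissue, fewer cells of a type and less RNA per cell cannot be told apart.

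CLP against sham asks which channel genes sepsis altered. In males, 4 channel genes rose (4.18% of all genes tested rose) and 13 fell (4.71% of all genes tested fell), of 52 tested. The 4 were the background channel Kcnk1, the BK channel subunit Kcnmb4, the sodium-activated channel Kcnt1 and the β subunit Kcnab2. Among the 13 were Kcnd2, Kcnd3, Kcnip2, Kcna2, Kcnv2, Kcnj3, Kcnj11, Kcnj12, Kcnk2, Kcnmb2, Kcnn1 and Kcnn3. In females, 2 of 48 rose (2.14% of all genes tested rose), Kcnk1 and Kcnmb4, and 0 fell (2.07% of all genes tested fell). With the FDR raised to 5%, 8 fell in females (5.58% of all genes tested fell). The unadjusted p was below 0.05 for 23 of 48 channel genes in females (24.7% of all genes tested) and for 32 of 52 in males (30.3% of all genes tested). By SAM, a permutation method, 1 fell in females (2.43% of all genes tested fell).

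The median difference over the tested channel genes was -0.45 in males and -0.23 in females, against -0.01 and -0.02 over all genes tested. Of the channel genes tested, 37 of 52 lay below 0 in males and 31 of 48 in females. The 13 genes that fell in males all lay below 0 in females too, between -1.79 and -0.35 with a median of -0.79, and the largest fall in males was that of Kcna2. None of them differed between the sexes when the difference itself was tested.

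**Figure D1:**
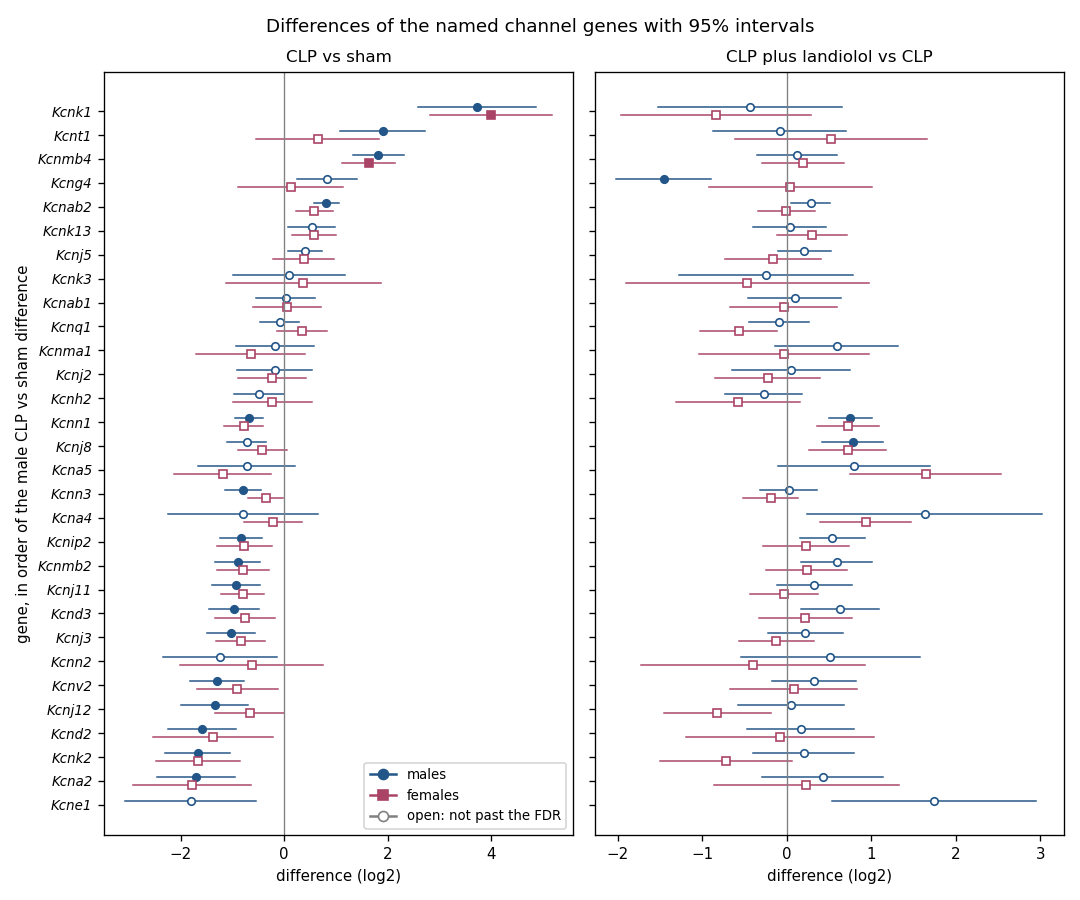
Differences of named channel genes (log2, horizontal axis) for CLP against sham on the left and CLP plus landiolol against CLP on the right, with 95% intervals. Circles are males and squares females, and filled symbols passed the FDR. The genes in the lower part of the left panel lay below 0 in both sexes (Kcne1 was tested in males only) while Kcnk1 stood at 3.73 in males and 3.99 in females.

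Of the transient outward current genes, Kcnd2, Kcnd3 and Kcnip2 fell in male CLP. Kcnd2 encodes Kv4.2, a pore of the fast transient outward current, and its probe lies at chr4:48046217-48046276 (rn4). Its levels in the male sham rats were 9.59, 8.97, 9.36, 9.18 and 9.46, and in the male CLP rats 7.95, 8.76, 7.21, 7.29 and 7.44. No CLP rat reached the lowest sham rat, and the difference was -1.58 (SE 0.31, limma adjusted p = 0.00269), a 3-fold fall. In female sham rats the levels were 9.48, 8.72, 9.33, 8.95 and 9.14, and in female CLP rats 6.64, 8.11, 8.33, 8.46 and 7.22. The female groups did not overlap either, but the CLP rats spread widely, and the difference of -1.37 (SE 0.55, limma adjusted p = 0.138) did not pass. Other Kcnd2 probes gave -1.54 and -1.69 in males, with limma adjusted p = 0.0106 and limma adjusted p = 0.0227, just above the FDR.

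Kcnd3 encodes Kv4.3, the other Kv4 pore of the ventricle. Its levels were 8.51, 8.15, 8.40, 8.57 and 8.21 in male sham and 8.17, 7.62, 7.38, 7.19 and 6.65 in male CLP, so that 1 CLP rat lay within the sham range. The difference was -0.96 (SE 0.23, limma adjusted p = 0.00917) in males and -0.76 (SE 0.27, limma adjusted p = 0.0959) in females, where only the male value passed. A second Kcnd3 probe gave -1.38 in males (limma adjusted p = 0.044), which did not pass. In males it was well above background on 5 of 5 sham, 1 of 5 CLP and 2 of 6 CLP plus landiolol arrays. It was thus kept through sham alone, and a fall was built into its selection. Kcna4, the Kv1.4 pore of the slow transient outward current, was at 5.97 ± 0.89 (SD, n = 5) in male sham and 5.18 ± 1.71 (n = 5) in male CLP, where a single rat stood at 2.19. Its differences of -0.79 (SE 0.68, limma adjusted p = 0.505) in males and -0.22 (SE 0.26, limma adjusted p = 0.688) in females did not pass.

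Kcnip2 encodes KChIP2, the calcium-binding subunit that brings Kv4 pores to the membrane. In male sham rats its levels were 16.06, 17.03, 16.88, 16.72 and 16.47, and in male CLP rats 15.80, 15.80, 15.97, 15.56 and 15.92. All CLP rats lay below all sham rats, with a difference of -0.83 (SE 0.19, limma adjusted p = 0.00755). A second Kcnip2 probe fell by 0.87 (limma adjusted p = 0.00379). In females the levels were 16.36, 17.03, 15.53, 16.36 and 16.05 in sham and 15.56, 15.43, 15.63, 15.60 and 15.26 in CLP, which overlapped, and the difference was -0.77 (SE 0.25, limma adjusted p = 0.0676). Kcnip3 was at -0.93 in males (limma adjusted p = 0.0356) by its reported probe, while another, dimmer probe of the gene was at -1.67 (limma adjusted p = 0.00541). That probe was well above background on 5 of 5 sham, 1 of 5 CLP and 3 of 6 CLP plus landiolol arrays, so it was kept through sham alone and a fall was built into its selection.

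**Figure D2:**
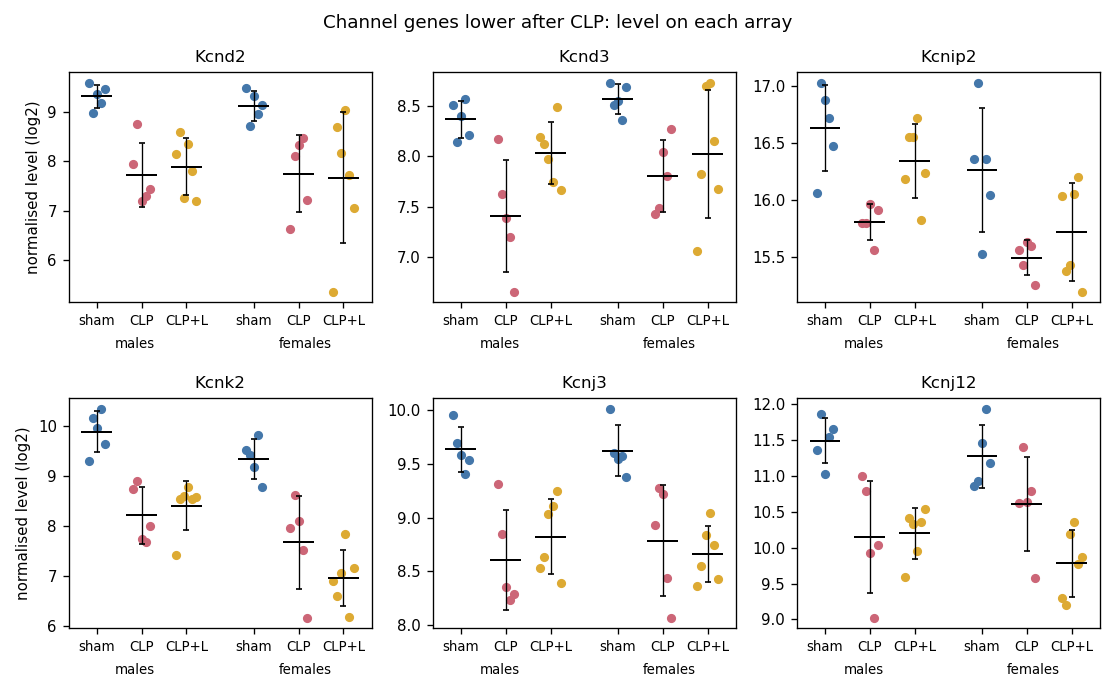
Normalised level (log2, vertical axis) of 6 channel genes on each array, by group (CLP+L, CLP plus landiolol). Points are rats, open where the probe was not well above background, with the mean and SD as bars. For Kcnd2, the male CLP rats lie at 7.21 to 8.76, below the male sham rats at 8.97 to 9.59, and the CLP plus landiolol rats at 7.19 to 8.60 lie in the same range as CLP.

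Delayed rectifier genes fell in part. Kcna2, a Kv1.2 pore, was at 7.28, 8.19, 7.59, 8.14 and 7.90 in male sham and at 5.96, 6.82, 6.13, 5.44 and 6.26 in male CLP, with no overlap and a difference of -1.70 (SE 0.35, limma adjusted p = 0.00403). A second Kcna2 probe was at -1.49 in males and did not pass (limma adjusted p = 0.0246). In females it was at 7.55 ± 0.56 (SD, n = 5) in sham and 5.76 ± 1.17 (n = 5) in CLP, a difference of -1.79 (SE 0.54, limma adjusted p = 0.0488) that did not pass. Kcnv2, a silent subunit that modifies other Kv pores, fell from 6.89 ± 0.27 (SD, n = 5) to 5.60 ± 0.38 (n = 5) in males, a difference of -1.29 (SE 0.24, limma adjusted p = 0.00204), with -0.91 (SE 0.37, limma adjusted p = 0.147) in females. Kcng2, another silent subunit, was at -0.64 (SE 0.17, limma adjusted p = 0.0201) in males by its reported probe and did not pass, while its other probe, singled out for its call, fell by 0.65 (limma adjusted p = 0.00745).

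Kcna5, the Kv1.5 pore, did not pass, with -0.72 (SE 0.44, limma adjusted p = 0.313) in males and -1.19 (SE 0.44, limma adjusted p = 0.11) in females. Kcnq1 and its partner Kcne1 form the slow delayed rectifier. Kcnq1 was at 13.05 ± 0.13 (SD, n = 5) in male sham and 12.96 ± 0.31 (n = 5) in male CLP, with 95% intervals of the difference of -0.46 to 0.28 in males and -0.13 to 0.82 in females. Kcne1 was well above background on all 5 male sham arrays and on 1 of 5 male CLP arrays, and its difference of -1.80 (SE 0.59, limma adjusted p = 0.0509) did not pass. Kcnh2, the ERG pore of the rapid delayed rectifier, was at -0.48 (SE 0.22, limma adjusted p = 0.168) in males and -0.22 (SE 0.36, limma adjusted p = 0.78) in females. The β subunit Kcnab1 lay at 0.03 in males with a 95% interval of -0.54 to 0.60.

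The inward rectifiers that fell in males were of 3 kinds, one from each of the Kir2, Kir3 and Kir6 families. Kcnj12 encodes Kir2.2, a strong inward rectifier. Its levels were 11.37, 11.87, 11.03, 11.55 and 11.66 in male sham and 10.99, 10.79, 9.93, 9.02 and 10.04 in male CLP, without overlap, and the difference was -1.34 (SE 0.31, limma adjusted p = 0.00741). A second Kcnj12 probe fell by 1.28 in males (limma adjusted p = 0.00817). In females the reported probe gave -0.67 (SE 0.31, limma adjusted p = 0.213). Kcnj2, the Kir2.1 pore and the best known carrier of the resting conductance, was at -0.18 in males, with an interval of -0.91 to 0.55, and at -0.23 in females, with an interval of -0.88 to 0.42.

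Kcnj3 and Kcnj5 encode Kir3.1 and Kir3.4, which together form the acetylcholine-gated channel, best known from the atrium. Kcnj3 was at 9.96, 9.69, 9.59, 9.41 and 9.54 in male sham and at 9.31, 8.85, 8.35, 8.23 and 8.29 in male CLP, and the groups did not overlap. It fell by 1.03 in males (SE 0.22, limma adjusted p = 0.00439), with -0.84 (SE 0.22, limma adjusted p = 0.025) in females. A dimmer Kcnj3 probe was at -0.88 in males and did not pass (limma adjusted p = 0.0691). Kcnj5 lay on the other side of 0, at 0.40 (SE 0.15, limma adjusted p = 0.0891) in males and 0.38 (SE 0.28, limma adjusted p = 0.463) in females. Of 6 atrial markers 5 were well above background in every group, 0 passed the FDR in any comparison, and their summed level was 116000 to 196000 in male sham, 102000 to 164000 in male CLP and 76400 to 162000 in male CLP plus landiolol. In females it was 137000 to 174000, 98200 to 170000 and 93200 to 163000 in the same order. The median difference of the 5 tested markers between CLP and sham was -0.80 in males and 0.47 in females, while Kcnj3 lay below 0 in both sexes. The part of atrial tissue in the Kcnj3 difference was not tested.

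Kcnj11 and Kcnj8 encode Kir6.2 and Kir6.1, the pores of ATP-sensitive channels. Kcnj11, the cardiomyocyte form, was at 12.77, 12.36, 12.06, 12.12 and 12.78 in male sham and 12.17, 11.42, 11.43, 11.55 and 10.85 in male CLP, with 1 CLP rat above the lowest sham rat. It fell by 0.93 (SE 0.22, limma adjusted p = 0.00807), and in females the groups did not overlap, at 11.85 to 12.62 in sham and 11.25 to 11.72 in CLP, with -0.80 (SE 0.20, limma adjusted p = 0.0181). A second Kcnj11 probe lay at -0.47 in males and did not pass (limma adjusted p = 0.586). Kcnj8 was at -0.72 (SE 0.18, limma adjusted p = 0.0117) in males, just above the FDR, and at -0.42 (SE 0.22, limma adjusted p = 0.282) in females.

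Among the K2P background channels 1 gene rose and 1 fell in males. Kcnk2 encodes TREK-1, a stretch- and lipid-sensitive background channel. Its levels were 9.31, 10.15, 9.97, 10.34 and 9.65 in male sham and 8.75, 8.91, 7.74, 7.67 and 8.00 in male CLP. No rat of one group entered the range of the other, and the difference was -1.67 (SE 0.30, limma adjusted p = 0.00131), a 3.18-fold fall. In females the levels were 9.52, 9.42, 9.18, 9.81 and 8.77 in sham and 7.96, 8.63, 8.10, 7.53 and 6.17 in CLP, again apart, with -1.66 (SE 0.38, limma adjusted p = 0.0127), just above the FDR. A dimmer Kcnk2 probe was well above background on 4 of 5 male sham arrays and on 0 of 5 male CLP arrays. It was kept in males through sham alone, so a fall was built into its selection.

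Kcnk1 encodes TWIK-1, a weakly inward-rectifying background channel, and its probe lies at chr19:56255238-56255297 (rn4). Its levels in male sham rats were 3.11, 3.94, 2.98, 4.58 and 3.19, and in male CLP rats 5.03, 7.67, 8.18, 7.21 and 8.36. In female sham rats they were 3.84, 6.29, 3.36, 3.98 and 3.17, and in female CLP rats 8.58, 7.13, 7.39, 8.84 and 8.66. The groups did not overlap in either sex. The probe was well above background on 3 of 5 male and 1 of 5 female sham arrays, and on every CLP array. The difference was 3.73 (SE 0.54, limma adjusted p = 0.000258) in males and 3.99 (SE 0.56, limma adjusted p = 0.000431) in females, 13.3-fold and 15.9-fold in the measured intensities. With the normexp correction, which compresses low intensities, it was 1.67 in males and 2.01 in females. Another Kcnk1 probe was well above background on 3 of 5 CLP arrays in either sex, and the remaining one on 0.

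Kcnk13 and Kcnk3, the THIK-1 and TASK-1 pores, did not pass in CLP against sham. Kcnk13 was at 0.53 (SE 0.21, limma adjusted p = 0.103) in males and 0.58 (SE 0.20, limma adjusted p = 0.0873) in females. Kcnk3 was at 0.10 in males and 0.38 in females with intervals of -0.98 to 1.18 and -1.13 to 1.88. Another Kcnk3 probe lay at -0.06 in males.

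Among the BK channel genes the subunits differed in direction. Kcnmb4 encodes the β4 subunit of the BK channel, best known from neurons, and its probe lies at chr7:55751678-55751737 (rn4). Its levels were 7.91, 7.01, 8.00, 7.23 and 7.81 in male sham and 9.92, 9.24, 9.15, 9.72 and 9.03 in male CLP, and 7.19, 7.72, 7.10, 6.95 and 7.26 in female sham and 9.32, 8.38, 8.64, 8.88 and 9.19 in female CLP. Every CLP rat lay above every sham rat of its sex. The difference was 1.82 (SE 0.23, limma adjusted p = 0.000102) in males and 1.63 (SE 0.24, limma adjusted p = 0.000579) in females. Kcnmb2, the β2 subunit, went down, from 7.08 ± 0.27 (SD, n = 5) to 6.19 ± 0.48 (n = 5) in males, with -0.89 (SE 0.21, limma adjusted p = 0.00743) in males and -0.79 (SE 0.24, limma adjusted p = 0.0466) in females. The pore Kcnma1 was at -0.18 in males and -0.65 in females, with intervals of -0.94 to 0.58 and -1.70 to 0.41.

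Kcnn1 and Kcnn3 encode the small-conductance channels SK1 and SK3. Kcnn3 was at 7.85, 8.28, 7.77, 7.87 and 8.43 in male sham and 7.59, 7.22, 7.12, 7.02 and 7.28 in male CLP, and it fell by 0.79 (SE 0.16, limma adjusted p = 0.00398), with -0.35 (SE 0.16, limma adjusted p = 0.2) in females. Kcnn2, the SK2 pore, was at -1.24 (SE 0.52, limma adjusted p = 0.124) in males and -0.62 (SE 0.65, limma adjusted p = 0.629) in females. Kcnn1 is given with the landiolol comparison. Markers of neurons and Schwann cells, cells that also use SK channels, were low in the same male rats, with 3 of 6 lower and 0 higher in male CLP, Prph and S100b among them, and 1 of 6 lower in female CLP. Their summed level was 1920 to 2430 in male sham, 1800 to 2090 in male CLP and 1280 to 2380 in male CLP plus landiolol, and 1620 to 2400, 1730 to 2550 and 1380 to 2200 in the female groups. S100b was well above background on under 80% of the female CLP arrays, and the part of nerve tissue in the SK differences was not tested.

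Kcnt1 encodes Slack, a sodium-activated channel. Its levels were 5.06, 4.42, 3.66, 2.50 and 3.71 in male sham, where 2 of 5 arrays were well above background, and 5.39, 5.96, 5.34, 5.95 and 6.23 in male CLP. The groups were apart and the difference was 1.90 (SE 0.39, limma adjusted p = 0.00336) in males, with 0.65 (SE 0.56, limma adjusted p = 0.544) in females, where the groups overlapped. In the deposited table of log2 values the male difference was 0.81 and did not pass. Other Kcnt1 probes were well above background on 0 of 5 male sham and 0 of 5 male CLP arrays. On male CLP plus landiolol arrays they were so on 1 of 6 and 2 of 6, and they were not tested. In males the related Kcnt2, singled out after its values were seen, was well above background on 5 of 5 sham arrays and on 0 of 5 CLP and 0 of 6 CLP plus landiolol arrays. It was kept through its sham arrays alone, so a fall was built into its selection, and it did not pass the FDR.

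Kcnab2 encodes Kvβ2, a cytoplasmic subunit of Kv1 channels related to aldo-keto reductases. Its levels were 8.76, 8.43, 8.33, 8.27 and 8.45 in male sham and 9.06, 9.20, 9.30, 9.35 and 9.44 in male CLP. All 5 CLP rats lay above all 5 sham rats, with a difference of 0.82 (SE 0.11, limma adjusted p = 0.00017). In females the levels were 8.33, 8.14, 8.61, 8.20 and 8.14 in sham and 8.81, 9.29, 8.79, 8.33 and 9.14 in CLP, with an overlap, and the difference was 0.59 (SE 0.17, limma adjusted p = 0.0397).

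**Figure D3:**
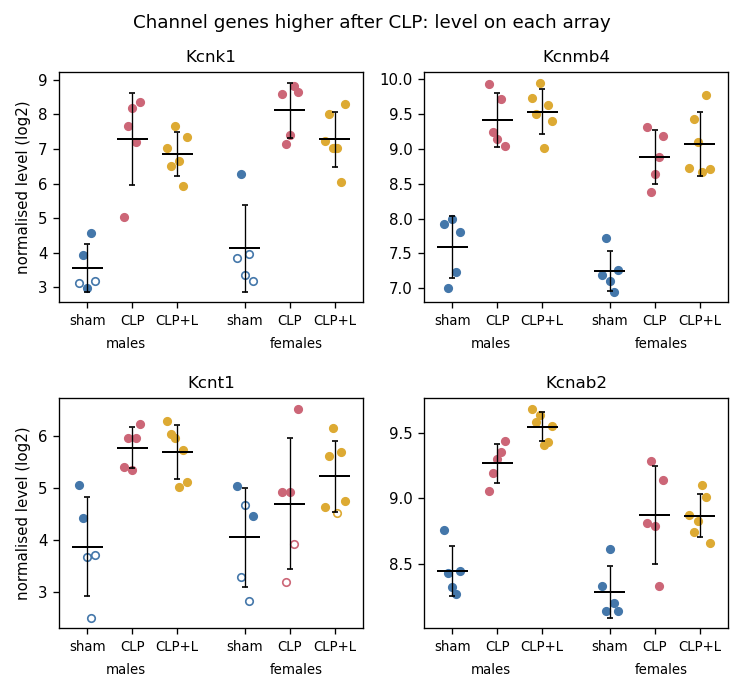
Normalised level (log2, vertical axis) of the 4 channel genes that rose after CLP in males, on each array and by group (CLP+L, CLP plus landiolol). Points are rats, open where the probe was not well above background, with the mean and SD as bars. Kcnmb4 lies at 9.03 to 9.92 in male CLP and 7.01 to 8.00 in male sham, and the CLP plus landiolol rats lie at 9.01 to 9.95.

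Some macrophage, monocyte and neutrophil markers rose after CLP in both sexes. These 4 channel genes all rose in males, and Kcnk1 and Kcnmb4 rose in females. All 6 macrophage and monocyte markers were well above background in every group, and Cd68, Lyz2 and Itgam rose (3 of 6) in male CLP and Cd68 and Lyz2 (2 of 6) in female CLP. Their summed level was 11800 to 16600 in male sham, 30400 to 43800 in male CLP and 22700 to 43200 in male CLP plus landiolol, and 16300 to 19900 in female sham (4 of 5 arrays, 1 lacking a spot), 31300 to 50800 in female CLP and 31300 to 49300 in female CLP plus landiolol. Of 5 neutrophil markers, S100a8 and S100a9 were present after CLP and rose in male CLP (2 of 5), and S100a8 rose in female CLP (1 of 5). S100a8 and S100a9, too often dim in sham, were kept only through groups with CLP. A rise over sham was thus built into their selection. Csf3r, Cxcr2 and Mpo were well above background on under 80% of the arrays of every group. The summed neutrophil level was 37.3 to 61.5 in male sham, 136 to 798 in male CLP, 316 to 866 in male CLP plus landiolol, 36.8 to 70.3 in female sham, 175 to 451 in female CLP and 177 to 1150 in female CLP plus landiolol. The part of leukocytes in the rise of Kcnk1, Kcnmb4, Kcnt1 and Kcnab2 was not tested.

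In the male CLP rats, in which the 13 channel genes were low, the fibroblast markers Col1a1, Col1a2 and Col3a1 were also lower and Tcf21 was higher (4 of 6 changed), and in female CLP 0 of 6 changed. With landiolol 0 of 6 differed from CLP in either sex, and against sham Tcf21 was higher in treated males. Their summed level was 77800 to 124000 in male sham, 47600 to 90800 in male CLP and 56600 to 97900 in male CLP plus landiolol, and 50300 to 74100, 42000 to 83000 and 58700 to 85400 in the female groups. Of 5 lymphocyte markers 1 was tested in females and 2 in males and 0 changed, with a summed level of 171 to 350 over all groups, and Cd3e and Cd79a above background on under 80% of the arrays of every group. The same held for all 4 adipocyte markers, at 14.9 to 190 when summed. Their part in the channel differences was not tested.

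Promoter sequences of 63 of the 94 genes were found in a RefSeq table (build GRCr8) with 250 bases before and 50 after each start. Those of a transient outward pore and its subunit, which fell, and of a BK and a Kv subunit, which rose, are shown as the 250 bases before the start, 5′ to 3′ on the strand of the gene. Kcnd2 lies at chr4:50742235-50742484 on the plus strand, and Kcnip2 at chr1:254613899-254614148, Kcnmb4 at chr7:54005102-54005351 and Kcnab2 at chr5:168270761-168271010 on the minus strand. Capitals mark the letters CACCC on either strand, where the other strand reads GGGTG, the core of a box bound by Krüppel-like factors.
Kcnd2: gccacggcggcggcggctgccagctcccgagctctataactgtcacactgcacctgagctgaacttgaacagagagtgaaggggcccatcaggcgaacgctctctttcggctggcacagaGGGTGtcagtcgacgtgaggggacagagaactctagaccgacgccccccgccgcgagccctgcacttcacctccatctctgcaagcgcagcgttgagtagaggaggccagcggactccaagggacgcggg
Kcnip2: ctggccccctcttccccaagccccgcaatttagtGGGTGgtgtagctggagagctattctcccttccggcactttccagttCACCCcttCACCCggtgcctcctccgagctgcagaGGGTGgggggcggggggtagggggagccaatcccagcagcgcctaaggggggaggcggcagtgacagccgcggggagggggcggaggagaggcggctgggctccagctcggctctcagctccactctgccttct
Kcnmb4: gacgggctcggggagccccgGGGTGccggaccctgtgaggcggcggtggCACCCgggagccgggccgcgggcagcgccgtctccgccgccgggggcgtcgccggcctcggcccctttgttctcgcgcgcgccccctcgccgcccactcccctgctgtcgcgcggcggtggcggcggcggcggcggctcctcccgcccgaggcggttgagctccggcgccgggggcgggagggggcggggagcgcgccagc
Kcnab2: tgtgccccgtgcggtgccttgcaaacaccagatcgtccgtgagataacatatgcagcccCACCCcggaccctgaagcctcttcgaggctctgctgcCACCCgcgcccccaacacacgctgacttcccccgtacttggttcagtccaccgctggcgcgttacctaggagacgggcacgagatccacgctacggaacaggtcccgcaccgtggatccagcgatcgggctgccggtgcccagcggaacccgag

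The letters occurred 1 time before the start of Kcnd2, 4 times before Kcnip2, and 2 times each before Kcnmb4 and Kcnab2, so they stood in genes that fell and in genes that rose. In windows of 300 bases, 45 of 63 channel promoters (71.4%) and 55.1% of all 27457 promoters held CACCC. The GC box GGGCGG stood in 49.2% of channel promoters and 34.9% of all promoters, and the cyclic AMP element core TGACG in 20.6% and 22%. The glucocorticoid half-site AGAACA stood in 12.7% and 20.1%. The TATA box TATAAA stood in 3.17% and 14.3%, and an NF-κB type site in 0% and 1.14%. Both strands were searched and none of these strings contains another, and the median GC content was 61% in channel promoters and 52.3% in all promoters. Such matches are descriptions of the sequence and not of bound sites.

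Partner genes outside the Kcn names were taken as a list of 20, of which 16 were tested in each sex. In male CLP 1 rose and 3 fell, and in female CLP 0 changed. Abcc8, the SUR1 receptor that joins Kir6 pores, fell by 0.72 in male CLP (SE 0.10, limma adjusted p = 0.00024), and was at -0.76 in female CLP (SE 0.23, limma adjusted p = 0.0562). Abcc9, the SUR2 receptor, was at -0.49 in male CLP (SE 0.12, limma adjusted p = 0.0112). The membrane scaffold Cav3 fell by 0.65 in male CLP (limma adjusted p = 0.00134), and Nedd4l, a ubiquitin ligase of ion channels, rose by 1.08 (limma adjusted p = 0.00324). The Kv4 partners Dpp6 and Dpp10 and the BK partners Lrrc52 and Lrrc55 were well above background on under 80% of the arrays of every group and were not tested. Klf15, Irx3, Irx4 and Irx5, listed as transcription factors of channel genes, did not pass in any comparison. Klf15 was at 0.52 in male CLP (limma adjusted p = 0.382).

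CLP plus landiolol against CLP asks what the drug altered in septic rats. In males 2 channel genes rose (1.03% of all genes tested rose), Kcnj8 and Kcnn1, and 1 fell (0.747% of all genes tested fell), Kcng4, of 52 tested. In females 0 of 48 rose (0.0617% of all genes tested rose) and 0 fell (0.037% of all genes tested fell). The unadjusted p was below 0.05 for 9 channel genes in females (9.88% of all genes tested) and for 12 in males (15.9% of all genes tested), and SAM called 0 in females (0.241% of all genes tested rose and 0.111% fell). The median difference over the tested channel genes was 0.13 in males and -0.06 in females, against 0.02 and 0.03 over all genes tested.

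Kcnj8, the Kir6.1 pore best known from smooth muscle, has its probe at chr4:180144084-180144143 (rn4). Its levels were 11.37, 10.92, 11.05, 11.38 and 10.77 in male CLP rats, and in male CLP plus landiolol rats they were 11.54 at the lowest, 11.83 at the median and 12.35 at the highest. The CLP plus landiolol rats all lay above the CLP rats, with a difference of 0.78 (SE 0.17, limma adjusted p = 0.0315). In male sham the levels were 12.03, 11.33, 11.89, 11.78 and 12.05, which overlapped the CLP plus landiolol group. In females the levels were 11.32, 10.73, 10.46, 11.14 and 10.76 in CLP and 10.87 at the lowest, 11.69 at the median and 12.09 at the highest in CLP plus landiolol, which overlapped. The female difference was 0.72 (SE 0.21, limma adjusted p = 0.239), where the probe did not pass, and the difference between the sexes was 0.04 with a 95% interval of -0.53 to 0.61.

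Markers of smooth muscle and pericytes, of which 0 of 7 changed with landiolol in either sex, had a summed level of 13600 to 28100 in male sham, 10600 to 16300 in male CLP and 12500 to 21400 in male CLP plus landiolol. In females it was 10400 to 16300, 10900 to 17500 and 9260 to 14300, with Rgs5 lower in female CLP (1 of 7) and Cnn1 often dim in CLP of both sexes and in treated females. The 6 endothelial markers were present in every group and 0 changed with landiolol, at 49400 to 68700 in male CLP and 56700 to 86100 in male CLP plus landiolol. They stood at 46100 to 63400 in male sham, and at 35100 to 56900, 36400 to 70900 and 47800 to 65300 in the female groups. The part of vessel cells in the Kcnj8 difference was not tested. The male call of Kcnj8 was lost when any of male CLP replicates 2 to 5, or male CLP plus landiolol replicates 1, 2, 3 or 6, was left out, and over all alternatives its limma adjusted p lay between 0.0176 and 0.0881 with a difference of 0.69 to 0.85.

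**Figure D4:**
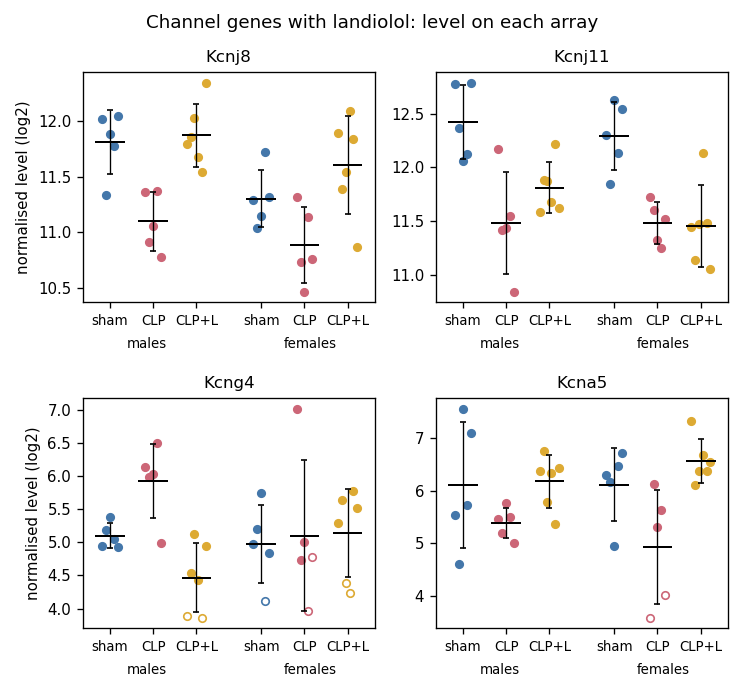
Normalised level (log2, vertical axis) of Kcnj8, Kcnj11, Kcng4 and Kcna5 on each array by group (CLP+L, CLP plus landiolol). Points are rats, open where the probe was not well above background, with the mean and SD as bars. Kcnj8 lies at 10.77 to 11.38 in male CLP and 11.54 to 12.35 in male CLP plus landiolol, while Kcnj11 lies at 10.85 to 12.17 and 11.59 to 12.22.

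The other ATP-sensitive pore, Kcnj11, was at 0.33 (SE 0.21, limma adjusted p = 0.487) in males and -0.03 (SE 0.19, limma adjusted p = 0.981) in females. Its second probe lay on the other side of 0 in males, at -0.42 (limma adjusted p = 0.685). Kcng4, a silent subunit of the Kv6 family, was at 6.13, 5.99, 6.03, 6.49 and 4.99 in male CLP, and in male CLP plus landiolol at 3.86 at the lowest, 4.48 at the median and 5.13 at the highest. A single CLP rat lay in the range of the treated rats, and the difference was -1.46 (SE 0.26, limma adjusted p = 0.0123). The probe was well above background on 5 of 5 male sham, 5 of 5 male CLP and 4 of 6 treated arrays. It was thus kept through sham and CLP and not through the treated group. A lower value with landiolol was therefore favoured by its selection. In females the difference was 0.04 (SE 0.46, limma adjusted p = 0.992), and the male minus female difference of -1.51 had an adjusted p of 0.968 by limma. With the normexp correction the male value was smaller, -0.54. The call was lost when only the groups compared were fitted (limma adjusted p = 0.0548) and at an FDR of 1%, and over all alternatives its adjusted p by limma or SAM lay between 0.00525 and 0.0548.

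Kcnn1 has probes that disagreed. The brighter one, at chr16:19104889-19104948 (rn4), gave 6.83, 7.05, 6.85, 6.98 and 7.01 in male sham, 6.34, 6.53, 6.35, 6.19 and 5.93 in male CLP and 6.85 at the lowest, 6.96 at the median and 7.34 at the highest in male CLP plus landiolol. The CLP rats lay below both other groups. It fell by 0.68 in male CLP against sham (SE 0.13, limma adjusted p = 0.00182) and was higher by 0.75 (SE 0.12, limma adjusted p = 0.00644) with landiolol. Both comparisons use the same CLP arrays.

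In females this probe gave 6.79, 6.57, 6.73, 6.70 and 6.72 in sham, 6.13, 5.57, 6.03, 5.94 and 5.92 in CLP and 5.996 at the lowest, 6.67 at the median and 7.07 at the highest in CLP plus landiolol. Sham and CLP were apart, and the differences of -0.78 (SE 0.18, limma adjusted p = 0.0128) for CLP and 0.73 (SE 0.17, limma adjusted p = 0.135) for landiolol did not pass. The other probe, mapped in the files to chr16:19102125-19103592 (rn4), an interval longer than the probe itself, gave 0.10 in male CLP against sham (SE 0.29, limma adjusted p = 0.873) and -0.02 with landiolol (SE 0.28, limma adjusted p = 0.976). In females it gave -0.17 and 0.03. Both probes were well above background on all arrays. The Kcnn1 calls therefore hold for 1 of its 2 probes.

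**Figure D5:**
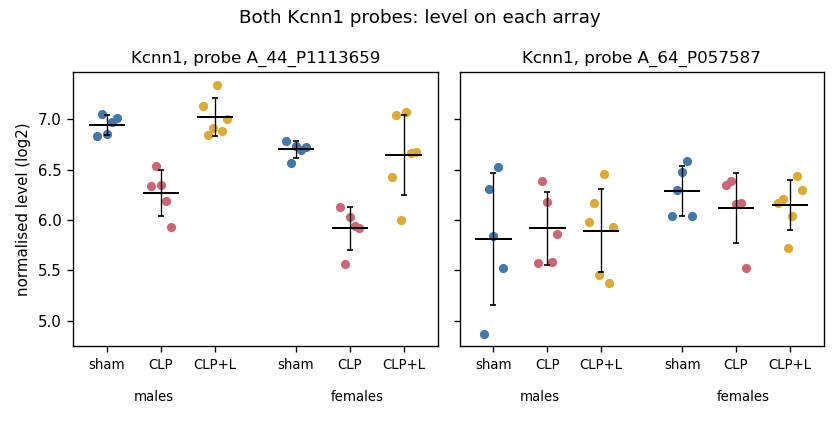
Normalised level (log2, vertical axis) of both Kcnn1 probes on each array by group (CLP+L, CLP plus landiolol). Points are rats with the mean and SD as bars. The probe on the left stands at 6.27 ± 0.23 (SD) in male CLP and 7.02 ± 0.19 in male CLP plus landiolol, and the one on the right at 5.92 ± 0.36 and 5.89 ± 0.42.

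Neuronal markers moved in both directions with landiolol in males, with Prph higher by 1.02 (limma adjusted p = 0.0212) and Dbh lower, at -0.94 (limma adjusted p = 0.0113), 2 of 6, and 0 of 6 in females. Their part in the Kcnn1 and Kcng4 differences was not tested.

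Kcna5, Kcna4, the transient outward genes and the genes that had risen after CLP did not pass with landiolol. Kcna5 was at 3.58, 6.12, 5.31, 5.63 and 4.01 in female CLP, and in female CLP plus landiolol at 6.11 at the lowest, 6.46 at the median and 7.34 at the highest, a difference of 1.64 (SE 0.42, limma adjusted p = 0.166). In males it was 0.80 (SE 0.42, limma adjusted p = 0.401). Kcna4 was at 1.63 (SE 0.66, limma adjusted p = 0.254) in males and 0.93 (SE 0.25, limma adjusted p = 0.188) in females. Kcne1 was at 1.74 (SE 0.57, limma adjusted p = 0.156) in males, with 5 of 6 treated arrays well above background. The transient outward genes Kcnd2, Kcnd3 and Kcnip2 were at 0.16, 0.63 and 0.54 in males, with limma adjusted p of 0.818, 0.184 and 0.172. In females they were at -0.08, 0.22 and 0.22, and none passed. Kcnk1 was at -0.43 (SE 0.51, limma adjusted p = 0.708) in males and -0.84 (SE 0.53, limma adjusted p = 0.67) in females, and Kcnmb4 at 0.12 and 0.19 with intervals of -0.35 to 0.59 and -0.29 to 0.67. None of the 16 partner genes tested in each sex passed in this comparison.

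CLP plus landiolol against sham asks which channel genes were altered in the treated septic rats. It shares its sham arrays with the CLP comparison, so the values below are given side by side and not as an independent result. In males 4 channel genes were higher (2.75% of all genes tested rose), Kcnk1, Kcnmb4, Kcnt1 and Kcnab2, and 3 were lower (2.08% of all genes tested fell), Kcnd2, Kcnk2 and Kcnn3, of 52. In females 3 were higher (3.41% of all genes tested rose), Kcnk1, Kcnmb4 and Kcnk13, and 4 were lower (2.59% of all genes tested fell), Kcnk2, Kcnj12, Kcnj3 and Kcnj11, of 48. When slide row was added to the model, 0 of the 7 female calls held, and row and group go together in these female arrays.

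Kcnk1 stood at 5.93 at the lowest, 6.84 at the median and 7.66 at the highest in male CLP plus landiolol, and at 6.05 at the lowest, 7.13 at the median and 8.31 at the highest in female CLP plus landiolol. All treated males lay above the male sham rats, while the lowest treated female lay below the single high female sham rat. The differences were 3.30 (SE 0.51, limma adjusted p = 0.000819) in males and 3.15 (SE 0.53, limma adjusted p = 0.00127) in females. In the deposited table the male value was 1.81 and did not pass. Another Kcnk1 probe, too dim to be tested, had male means of 2.21 in sham, 4.22 in CLP and 2.87 in CLP plus landiolol. Its female means were 2.32, 4.44 and 3.78 in the same order. It was well above background on 0 of 6 treated males and 1 of 6 treated females. Kcnmb4 was higher by 1.94 (SE 0.22, limma adjusted p = 7.2e-05) in males and 1.82 (SE 0.23, limma adjusted p = 0.000145) in females. Kcnab2 was at 9.41 at the lowest, 9.56 at the median and 9.68 at the highest in treated males, all above the sham rats, with 1.10 (SE 0.11, limma adjusted p = 1.52e-05), and with 0.58 (SE 0.16, limma adjusted p = 0.0272) in females. Kcnt1 differed by 1.82 (SE 0.37, limma adjusted p = 0.00538) in males.

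Kcnk2 was at 6.18 at the lowest, 6.98 at the median and 7.84 at the highest in female CLP plus landiolol, below all female sham rats, and the difference of -2.38 (SE 0.37, limma adjusted p = 0.000686) was a 5.22-fold fall. In males it was -1.47 (SE 0.28, limma adjusted p = 0.00379), and a dimmer probe, kept through sham alone, was at -1.31 and did not pass (limma adjusted p = 0.0617). Kcnd2 was at -1.42 (SE 0.30, limma adjusted p = 0.00649) in males and -1.45 (SE 0.52, limma adjusted p = 0.0834) in females, where only the male value passed. Its other probes in males, at -1.49 (limma adjusted p = 0.0156) and -1.62 (limma adjusted p = 0.0328), did not. Kcnn3 was at -0.77 (SE 0.16, limma adjusted p = 0.0055) in males and -0.54 (SE 0.15, limma adjusted p = 0.0296) in females. Kcnj12 lay at 9.20 at the lowest, 9.83 at the median and 10.37 at the highest in treated females, all below the sham rats, with -1.49 (SE 0.30, limma adjusted p = 0.00401), and with -1.29 (SE 0.29, limma adjusted p = 0.011) in males, where its second probe passed at -1.39 (limma adjusted p = 0.0057). Kcnj3 and Kcnj11 were at -0.96 (SE 0.21, limma adjusted p = 0.00728) and -0.83 (SE 0.19, limma adjusted p = 0.009) in females. Their second probes did not pass there, at -1.06 for Kcnj3 (limma adjusted p = 0.0403) and -1.11 for Kcnj11 (limma adjusted p = 0.223).

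Kcnk13 was at 6.17, 5.66, 5.43, 6.26 and 4.91 in female sham, and in female CLP plus landiolol at 6.48 at the lowest, 6.53 at the median and 6.78 at the highest. The groups were apart, with 0.88 (SE 0.19, limma adjusted p = 0.00746), and in males the difference was 0.57 (SE 0.20, limma adjusted p = 0.0921). A dimmer Kcnk13 probe, tested in males, was at -0.46 and did not pass. It was well above background on 4 of 5 male sham and 1 of 6 male CLP plus landiolol arrays. This probe was kept through sham alone, so a value below sham was built into its selection. Of the partners, Abcc8 was lower in both sexes, at -0.74 in males and -1.15 in females (limma adjusted p = 0.000241 and limma adjusted p = 0.00344), and Cav3 was lower in males. Akap9 was higher in females, at 0.80 (limma adjusted p = 0.0079). In the treated rats Cd68 and Lyz2 were higher than in sham in both sexes, Itgam in males, and Kdr, an endothelial marker, in females. S100a8 and S100a9 were higher in both sexes, but had been kept only through groups with CLP.

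The difference between the sexes was tested as an interaction over 53 channel genes. For CLP against sham 0 passed an FDR of 5% (0% of all genes tested passed), and for CLP plus landiolol against CLP 0 passed (0% of all genes tested passed). The unadjusted p by limma was below 0.05 for 2 channel genes in the first (3.87% of all genes tested), Kcnh1 and Kcnk6, and for 3 in the second (4.78% of all genes tested), Kcng4, Kcnj12 and Kcnmb1. No other tool was run for this test. For Kcnd2 the male minus female difference of CLP against sham was -0.20 with a 95% interval of -1.54 to 1.15, so that a gap of either sign of about 1 unit could not be seen.

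Every one of the 36 calls of channel genes kept its direction on each of the 2 slides of its sex, which describes the arrays that made the calls and is no independent support. Leaving out any 1 of the 16 arrays of the sex kept 7 of the 17 male CLP calls each time, those of Kcnk1, Kcnmb4, Kcnab2, Kcnd2, Kcnk2, Kcnn1 and Kcnv2, and both female CLP calls. The call of Kcnd3 held in 2 of 16 such fits, and those of Kcnip2 and Kcnj11 in 4 of 16.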

How the data were processed

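RNA of 32 rat left ventricles was hybridised to 1-colour Agilent arrays, 1 rat per array. The authors deposited the scanner files, whose processed intensities came from Agilent Feature Extraction (version 10.5 per the submitters' processing notes). They also deposited log2 values of each array, used only as an alternative, and it is unknown whether an offset was added before its logarithm. Chromosome positions of probes are those of the files (rn4), and whether a probe lies in a UTR was not analysed here.

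Processed intensities of non-control spots were converted to log2 and quantile-normalised within each sex. A probe was kept if it was well above background on 80% of the arrays of at least 1 group (25866 male and 25395 female probes). Groups came from the sample labels. limma 3.58.1 (R 4.3.3, data.table version 1.17.8) fitted all 16 arrays of a sex, with Benjamini-Hochberg adjustment over all kept probes. Its p-values set a difference against the spread between arrays of the same group, 1 rat per array. The FDR was 1% against sham and 5% for CLP plus landiolol against CLP and for the difference between the sexes, which was fitted over all 32 arrays. A gene was counted by its probe with the highest mean. Where all arrays of a group were too dim for a probe, that group gave only a bound. Named genes were every channel gene past the FDR in any of the 6 comparisons, a list of ventricular channels whatever their values, and partners past the FDR, and a few of these genes and markers are not reported here. The members, lists and markers (ventricular and atrial cardiomyocyte, smooth muscle and pericyte, endothelial, fibroblast, macrophage and monocyte, neutrophil, lymphocyte, neuron and Schwann cell, adipocyte) were chosen with earlier results of these data known. As alternatives, arrays were scaled to their upper quartile, and further fits used normexp (offset 50), other filters, slide or slide row as a term, a trended prior, both sexes normalised together, the deposited log2 values, only the groups compared, SAM with 100 permutations, the other FDR, any probe of a gene, and leaving out each array. Scripts were tested on simulated data, and Python 3.11.15 with matplotlib 3.10.9 drew the figures.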

Additional observations from a re-analysis of the deposited data

Results flagged for a closer look

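In groups of 5 or 6 rats, 9 of 177 combinations of named channel gene and group had 1 rat whose gap to its nearest neighbour took an unusually large share of the range of the group by Dixon's criterion, which chance alone gives in about 1 in 20 groups. In males after CLP, replicate 4 was the lowest for Kcna4, a Kv1.4 pore, with a gap of 0.801 of the range, and replicate 1 the lowest for Kcnk3, the TASK-1 pore, with 0.752. In male CLP plus landiolol, replicate 1 was the lowest for Kcnk2 (share of the range 0.815) and for Kcnq1 (0.822), replicate 2 the lowest for Kcnn3 (0.642), and replicate 5 the lowest for Kcne1 (0.655). In females, sham replicate 2 was the highest for Kcnk1 (share of the range 0.741). In female CLP plus landiolol, replicate 2 was the lowest for Kcnj2 (share of the range 0.72) and replicate 4 the highest for Kcnv2 (0.65).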

How the results depend on the processing

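None of the 36 called differences of channel genes changed sign under the alternatives run, but many calls lay close to the FDR. In male CLP against sham, 17 channel genes passed, 11 with no filter and 8 with only the groups compared in the fit. In male CLP plus landiolol against CLP, 3 passed, 1 at an FDR of 1% and 1 with only the groups compared. Against sham, the treated males had 7 calls, 19 at an FDR of 5%, 4 with no filter and 15 by SAM. In female CLP against sham, 2 passed, 11 at an FDR of 5%, 4 with normexp, 1 with a filter over all arrays and 4 in the deposited table. Against sham, the treated females had 7 calls, 11 at an FDR of 5%, 4 with no filter, 0 with the slide row as a term and 12 by SAM. The cause was not tested, except that no filter adds tests and fewer groups give fewer arrays. For these counts and those below, the share of all genes called under each alternative is not given. They describe the processing and not a trait of channel genes.

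Leaving out each array in turn gave 7 to 18 calls for male CLP against sham, 2 to 5 for male CLP plus landiolol against CLP and 4 to 9 against sham. In females it gave 2 to 5, 0 to 1 and 3 to 7, and 0 to 0 for both differences between the sexes. The male CLP count was 11 without male sham replicates 1 or 4 or CLP plus landiolol replicate 2, 10 without sham replicate 2 or CLP replicate 5, 9 without sham replicate 5, 8 without CLP replicate 3 and 7 without CLP replicate 4. The count for treated males against sham was 4 without sham replicates 2, 3, 4 or 5 or CLP plus landiolol replicate 5, and that against CLP was 5 without CLP replicate 1. The count for treated females against sham was 3 without sham replicate 3 or CLP plus landiolol replicates 1 or 2, and 4 without sham replicates 4 or 5 or CLP plus landiolol replicates 3, 5 or 6. It was 1 against CLP without CLP plus landiolol replicate 3, and female CLP against sham gave 5 without CLP plus landiolol replicate 4. No paired analysis was possible because the labels give no replicate numbers that pair rats across groups. Dim probes such as those of Kcnk1, Kcnt1 and Kcng4 limit the size of their differences.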
